A study of Solanum pimpinellifolium with 6 samples.

Results

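The sequences described here were the 42 distinct small RNAs listed under the names miR894, miR5139, miR6300, miR6478, miR8155 and miR8175, out of 628 distinct sequences (64 of 758 list entries) in the miRNA list of heat-treated tomato leaves. All entries with one of these 6 numbers after miR were taken, and an entry repeated for several genome places was counted once per sequence. The names were chosen with the sequences and reads of these libraries already known, so that their features and levels are given as a description, without tests. The plants were Solanum pimpinellifolium LA2093, a wild tomato that tolerates heat, and their leaves were compared at normal temperature (NT, 26/18 °C day/night), moderately elevated temperature (MET, 33/33 °C) and acutely elevated temperature (AET, 40/40 °C). The second fully expanded leaf was taken after 8 h, and leaves of several seedlings were mixed. Each temperature had a single small RNA library and a single degradome library, without replicates, so no test between temperatures was made and each interval covers counting error only.

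A plant miRNA is cut by a Dicer-like enzyme out of a folded precursor and guides an Argonaute protein to matching mRNAs, which are usually cleaved. Small RNAs of the same length also arise when mature tRNAs are cut. Their 3′ fragments end in CCA, which an enzyme adds to every tRNA and which carries the amino acid, and their 5′ fragments begin at the first base of the tRNA. Fragments of tRNAs are abundant in plant leaves and are known to change under stress. The 3′ fragments used here reach into the T arm, whose loop contains a conserved adenine that is methylated in many cytosolic tRNAs.

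Of the 42 sequences, 18 (42.9%) ended in CCA, against 14 of 586 (2.39%) listed sequences outside these names. The ending was found in 7 of 7 miR5139 and miR8155 sequences, in 10 of 11 miR8175 sequences and in the single miR894 sequence. None of the 13 miR6300 and none of the 10 miR6478 sequences had it. By reads, sequences ending in CCA made up 91.4% (95% Clopper-Pearson interval 90.5 to 92.2) of these names' reads at NT, 84.6% (83.2 to 85.8) at MET and 79.9% (78.3 to 81.5) at AET. Most of these reads came from the single miR894 sequence, with 3190 of 3944 raw reads at NT, 1995.5 of 2576 at MET and 1517.5 of 1971.5 at AET. Among the other listed sequences, those ending in CCA held 0.0567%, 0.0750% and 0.0558% of the reads at NT, MET and AET.

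Of the 18 sequences ending in CCA, 14 are shown first, because within the miR5139 and miR8155 set and within the miR8175 set most listed base differences fell at 1 place. Each label gives the listed name and the length in nt, with a letter where a name had several sequences of a length. Capitals mark the final CCA and the base at the 19th place from the 3′ end, which in a mature tRNA is the place of the conserved T-loop adenine. The name suffixes in the list stood for the species of the known miRNA, such as ppt for the moss Physcomitrella patens, rgl for Rehmannia glutinosa, cpa for papaya and ath for Arabidopsis.
miR894-L21: cgTttcacgtcgggttcaCCA
miR5139-L21: cgAaacctggctctgataCCA
miR5139-L19: AaacctggctctgataCCA
miR8155-L20: gTaacctggctctgataCCA
miR8155-L19a: TaacctggctctgataCCA
miR8155-L19b: GaacctggctctgataCCA
miR8175-L23a: ttcgTtccccggcaacggcgCCA
miR8175-L21a: cgAtccccggcaacggcgCCA
miR8175-L21b: cgTtccccggcaacggcgCCA
miR8175-L21c: cgAtccccggcagcggcgCCA
miR8175-L19a: AtccccggcaacggcgCCA
miR8175-L20a: gTtccccggcaacggcgCCA
miR8175-L20b: gGtccccggcaacggcgCCA
miR8175-L19c: CtccccggcaacggcgCCA

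The miR5139 and miR8155 sequences have the 3′ end of the plant initiator methionine tRNA, and miR5139-L21 was listed under both names. The miR8175 sequences have the 3′ end of the aspartate tRNA. No tRNA is named here for miR894. The tRNA names given here and below are background and were not checked against annotated tomato tRNAs.

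The miR8175 sequences were set against the stretch ggttcgAtccccggcaacggcgCCA, which joins a run of a listed hairpin to CCA, and the miR5139 and miR8155 sequences against miR5139-L22a, tcgAaacctggctctgataCCA. Substitutions give the base of that stretch, the position from the 5′ end of the shorter sequence and its own base. Of the 17 sequences ending in CCA that could be aligned, 9 differed at the 19th place from the 3′ end and 3 differed at 1 other place. In miR8175 the base was T in miR8175-L23a (A5T), miR8175-L21b (A3T) and miR8175-L20a (A2T). It was G in miR8175-L20b (A2G) and miR8175-L19b (A1G), and C in miR8175-L19c (A1C). In the initiator methionine set it was T in miR8155-L20 (A2T) and miR8155-L19a (A1T) and G in miR8155-L19b (A1G). The differences elsewhere were A13G in miR8175-L21c, A12G in miR8175-L20c, which is the same place of the stretch, and G3T in miR5139-L22b. miR894 could not be aligned to a listed hairpin, and it had T at the 19th place from its 3′ end.

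Reads with a base other than A at this place were the majority in miR8175 and the minority in miR5139 and miR8155, in each library. In miR8175 they were 282 of 444 raw reads at NT (63.5%, 95% Clopper-Pearson interval 58.8 to 68.0), 266.5 at MET against 139.5 with A (65.6%, 60.9 to 70.4), and 118 at AET against 76.5 with A (60.7%, 53.3 to 67.4). The intervals of the 3 libraries overlapped. This majority rested on miR8175-L23a, which alone had 202, 185 and 73 raw reads at NT, MET and AET. Without it, reads with A were the majority in each library. At 21 nt, the T form miR8175-L21b had 58, 51.5 and 33 raw reads and the A form miR8175-L21a 111.5, 84 and 47.5. In miR5139 and miR8155 together the shares were 11.0% (7.72 to 14.99) at NT, 9.46% (5.76 to 15.1) at MET and 5.97% (3.56 to 9.80) at AET, and these intervals overlapped too. The study removed reads that matched known tRNAs and allowed at most 1 mismatch to a known miRNA. This limited which base differences could be listed, and the T form miR8155-L19a was itself marked as present in miRBase. The place and these shares therefore hold for the listed sequences and not for the tRNA fragments of the leaf. Methylation of the T-loop adenine was not measured, and its part in these base differences was not tested. Of the 9 forms with another base, 4 occurred in a listed hairpin once the CCA was set aside. These were miR8155-L20, miR8155-L19a and miR8155-L19b, all such forms of the initiator methionine set, and miR8175-L19b. With the CCA kept, miR8155-L19a and miR8155-L19b still occurred in a listed hairpin. The 3 T forms of miR8175 occurred in none of the 507 distinct listed hairpins, of which 213 held masked bases.

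**Figure D1:**
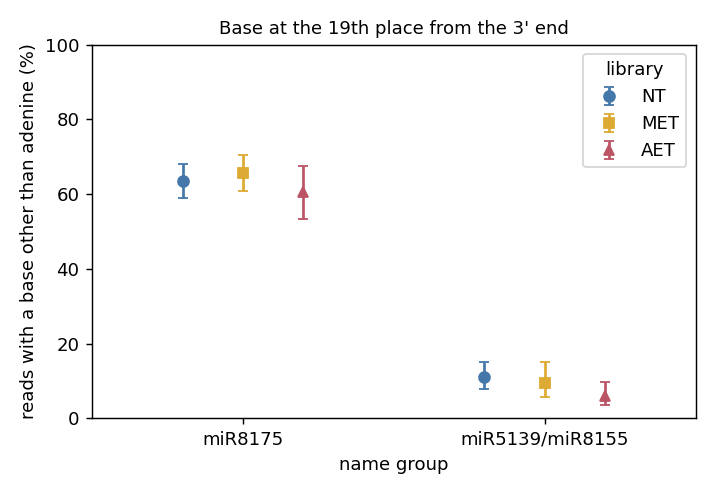
Share of raw reads (%) with a base other than adenine at the 19th place from the 3′ end, for miR8175 and for miR5139 with miR8155, in the NT, MET and AET libraries. Points are shares and bars are 95% Clopper-Pearson intervals for counting error; the miR8175 points lie between 60.7% and 65.6% and the other points between 5.97% and 11.0%. Most of the miR8175 reads with another base belong to 1 sequence, miR8175-L23a.

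The miR6300 and miR6478 sequences lacked CCA and lay in the 5′ part of a tRNA-like stretch, that of the aspartate tRNA for miR6300 (gma, soybean) and of the tyrosine tRNA for miR6478 (ptc, Populus trichocarpa). Of the 13 miR6300 sequences, 5 began with the first base of the stretch, 2 began there with another base, 5 began further inside it and 1 began upstream of it. Of the 10 miR6478 sequences, 9 began with the first base and 1 began inside. The sequences shown all begin at the first place. Capitals here mark the seed, bases 2 to 8. According to the paper, plant miRNAs usually pair with their targets extensively, so seeds are given only as a description of the sequences.
miR6300-L19a: gTCGTTGTagtatagtggt
miR6300-L23a: gTCGTTGTagtatagtggtaagt
miR6300-L22b: tTCGTTGTagtatagtggtaag
miR6478-L19a: cCGACCTTagctcagttgg
miR6478-L23a: cCGACCTTagctcagttggtaga
miR6478-L24: cCGACCTTagctcagttggtagag
miR6478-L19b: cCGACCATagctcagttgg
miR6478-L19d: cCTACCTTagctcagttgg

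There were 25 distinct seeds among the 42 sequences, and the largest sets that shared a seed were 7 of the miR6300 sequences and 5 of the miR6478 sequences. Among the sequences ending in CCA, starts and base differences varied, and 7 miR5139 and miR8155 sequences had 5 seeds and 10 miR8175 sequences had 7. Within miR6300 and miR6478, 7 of 23 sequences differed from the hairpin stretch by 1 base. Examples were G1T in miR6300-L22b, T7A in miR6478-L19b and G3T in miR6478-L19d. The T7A form was present in 1 listed hairpin and the other 2 in none.

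Hairpins that the list gives as miRNA precursors carried members of different names on the same strand. On chromosome 3, the hairpin at chr3:58802522-58802596 (plus strand, 75 nt) held miR6300-L21 at its start and miR8175-L21c, without its CCA, near its end. Coordinates are those of the study's list, and no source read here names their genome build. In the hairpin below, capitals mark the bases of both sequences.
hairpin of miR6300-L21 and miR8175-L21c: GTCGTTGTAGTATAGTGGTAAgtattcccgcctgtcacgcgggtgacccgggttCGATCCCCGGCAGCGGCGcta
The hairpin ends in cta where miR8175-L21c ends in CCA. The hairpins at chr3:62513864-62513940 and chr7:60044542-60044619 (plus strand) also held 1 miR6300 and 1 miR8175 sequence each. In all, 9 hairpins held both the 19 nt of miR6300-L19a and the first 16 nt of miR8175-L23b. Of these, 5 were long enough to show the bases where CCA would stand, and 0 had CCA there. Other listed hairpins did hold a member with its CCA. This was so for miR5139-L19 in 5 hairpins, and for miR8175-L19a, miR8155-L19a and miR8155-L19b in 2 each.

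The start of miR6478 was repeated across many listed hairpins. The hairpin of miR6478-L24 at chr10:2684756-2684842 (plus strand) is shown with that sequence in capitals.
hairpin of miR6478-L24: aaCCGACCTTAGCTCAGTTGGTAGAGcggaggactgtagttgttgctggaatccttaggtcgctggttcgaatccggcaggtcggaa
The same 19 nt start occurred in 12 of the 507 hairpins. On chromosome 11, 4 miR6478 hairpins of 3 sequences lay on the minus strand within 3033 nt (3152456 to 3155488).

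Exact presence in a listed hairpin differed between sequences with and without CCA. Of 41 members with a hairpin under their name, 23 (56.1%) occurred in it letter for letter, against 340 of 490 (69.4%) of the other listed sequences. The number was 19 of 24 for members without CCA. It was 4 of 17 for members ending in CCA, with the CCA then part of the hairpin. Without the CCA, 9 of those 17 were found. No genome place was given for 5 of the 42 sequences, among them miR894-L21 and miR8175-L23a. The list marked 33 of the 42 as differing from the miRBase sequence, 7 as new to a known precursor and 2, miR5139-L19 and miR8155-L19a, as present in miRBase.

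The hairpins of these names folded weakly by the list's own index. The minimal folding free energy index (MFEI) relates folding energy to length and base composition. It was 0.80 or more for 2 of 59 distinct hairpins of these names (3.39%), against 256 of 463 (55.3%) hairpins of the other conserved miRNAs. Their median MFEI was 0.60, against 0.80 for the other conserved miRNAs. The study required this value only of predicted miRNAs. The shortest place given to a member was 19 nt, on chromosome 7 for miR8175-L19a, no longer than the sequence itself. Places under 50 nt numbered 10 of 54 (18.5%), against 75 of 358 (20.9%) for the other conserved miRNAs.

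**Figure D2:**
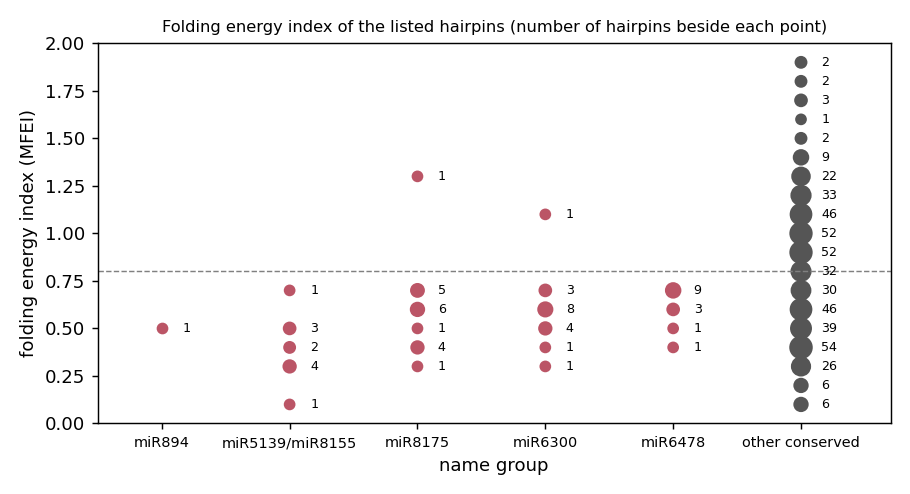
Folding energy index (MFEI, vertical axis) of the listed hairpins by name group, with the number of hairpins beside each point and a dashed line at 0.80. Hairpins shared by miR6300 and miR8175 are drawn in both groups; 2 hairpins of these names lie above the line, against 256 of 463 at or above it among the other conserved miRNAs.

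Counted by sequence, the lengths leaned to the short end of the 19 to 24 nt window. By reads they did not, since miR894-L21, of 21 nt, alone held 73.9% of these names' raw reads at NT, 65.5% at MET and 61.5% at AET. Of the 42 sequences 14 (33.3%) had 19 nt, against 21 of 586 (3.58%) of the other listed sequences. The usual miRNA length of 21 nt was seen in 6 (14.3%) against 210 (35.8%), and 24 nt in 3 (7.14%) against 199 (34.0%).

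All listed sequences together had 301702 raw reads at NT, 424963 at MET and 394910 at AET. The 42 sequences held 1.43% of them at NT (95% Clopper-Pearson interval 1.39 to 1.47), 0.717% at MET (0.692 to 0.743) and 0.625% at AET (0.600 to 0.650). The share at NT stood above both heated libraries, whose intervals did not overlap each other. miR894-L21 made up 73.9%, 65.5% and 61.5% of it at NT, MET and AET. Without miR894-L21 the share was 0.373% at NT, 0.247% at MET and 0.240% at AET. Raw values were whole numbers or ended in 0.5, and 17 of the 42 were not whole at NT, 17 at MET and 18 at AET. Sets of these sequences also carried the same reads, such as miR6300-L24b, miR6300-L20b and miR6300-L19b with 5, 5.5 and 2 raw reads each at NT, MET and AET.

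At least 10 normalized reads in 1 library were reached by 21 of the 42 sequences. Normalized reads are raw reads times 1 factor per library, set by the study. The other 21 had between 0 and 8 raw reads in every library, for example miR6300-L22b with 0, 3 and 8 at NT, MET and AET, and 0 reads allows up to 3.

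**Figure D3:**
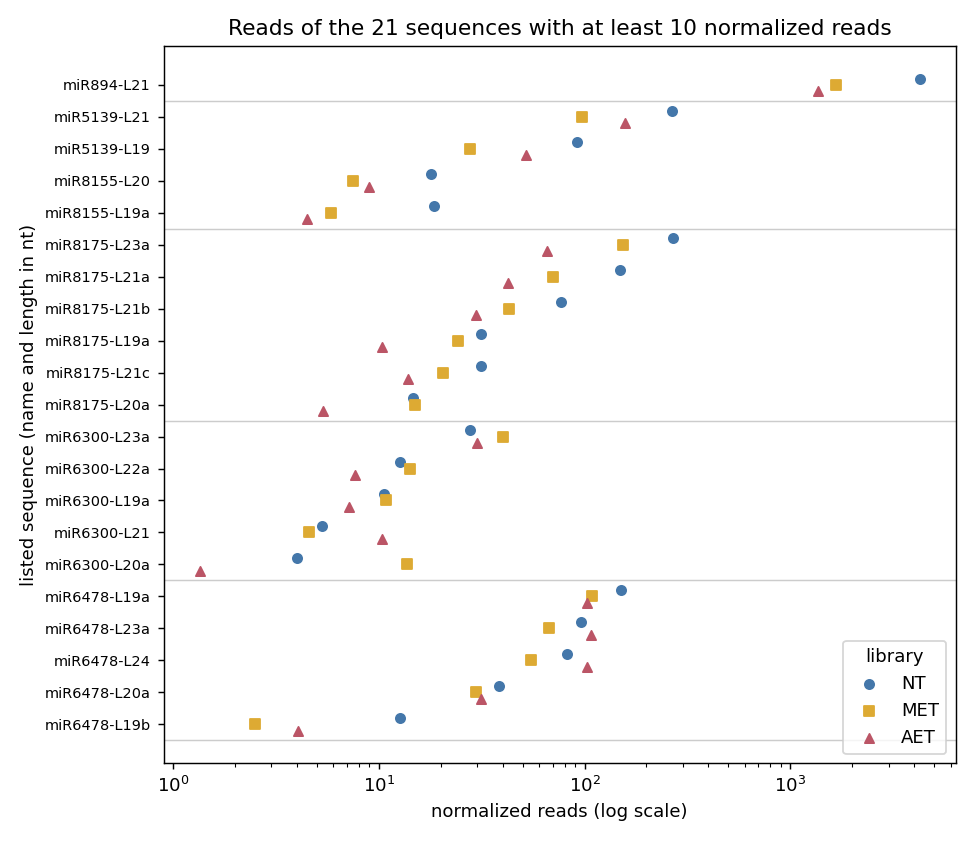
Normalized reads (log axis) of the 21 sequences with at least 10 normalized reads in 1 library, grouped by name from miR894 at the top to miR6478 at the bottom, in the NT, MET and AET libraries. miR894-L21 lies between 1363 and 4241, no other point exceeds 268.5, and the 6 miR8175 sequences have their AET point lowest.

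miR894-L21 was the most abundant member at each temperature. It had 3190 raw reads at NT, 1995.5 at MET and 1517.5 at AET, or 4241, 1663 and 1363 normalized reads. It was 2.55-fold lower at MET than at NT (log2 ratio -1.35, 95% interval -1.43 to -1.27) and 3.11-fold lower at AET than at NT (log2 ratio -1.64, interval -1.73 to -1.55). Between AET and MET the log2 ratio was -0.29 (-0.38 to -0.19), under the 2-fold mark. Scaled by all valid reads in place of the study's factor, its MET to NT ratio was -0.93 on the log2 scale and no longer past 2-fold.

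In sum, the initiator methionine set was lowest at MET. miR5139-L21 had 267.2 normalized reads at NT, 97.1 at MET and 158 at AET, and miR5139-L19, which begins at the T-loop adenine, had 91.7, 27.9 and 52.1. Both were past 2-fold lower at MET than at NT, with log2 ratios of -1.46 (interval -1.80 to -1.12) and -1.72 (-2.33 to -1.08), and within 2-fold at AET against NT. miR8155-L20 had 13.5, 9 and 10 raw reads and miR8155-L19a 14, 7 and 5 at NT, MET and AET. Unlike the sum, miR8155-L19a was lowest at AET, with 18.6, 5.83 and 4.49 normalized reads at NT, MET and AET. Summed over the 7 sequences, there were 412 normalized reads at NT, 145 at MET and 233 at AET. The summed log2 ratio was -1.50 (-1.77 to -1.23) for MET against NT, -0.82 (-1.06 to -0.58) for AET against NT and 0.68 (0.40 to 0.96) for AET against MET. The level at AET lay between those at NT and MET, with no overlap of the counting intervals of the sums.

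The miR8175 set, from the 3′ end of the aspartate tRNA, was lowest at AET. miR8175-L23a, with T in the loop, had 268.5 normalized reads at NT, 154 at MET and 65.5 at AET, and miR8175-L21a, with A, had 148, 70.0 and 42.7. Against NT, the AET log2 ratios were -2.03 (interval -2.44 to -1.64) for miR8175-L23a and -1.80 (-2.31 to -1.29) for miR8175-L21a. The A form and the T form of equal length, miR8175-L21a and miR8175-L21b, had MET to NT log2 ratios of -1.08 (-1.51 to -0.67) and -0.85 (-1.40 to -0.27), which overlapped. All 6 miR8175 sequences that reached 10 normalized reads were past 2-fold lower at AET than at NT, where 19.4% of all listed sequences with enough reads were lower. As length and base variants of the same stretch, read in the same libraries, the 6 do not count as separate observations. At MET against NT 1 of the 6 was past 2-fold lower (14.8% of all listed), and at AET against MET 3 of the 6 (20.5% of all listed). The interval of miR8175-L20a, with 6 raw reads at AET against 11 at NT, included no change (-3.16 to 0.12). Summed over 11 sequences, normalized reads were 591 at NT, 339 at MET and 175 at AET.

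The miR6300 and miR6478 sums at AET lay closer to those at NT. Summed over 13 miR6300 sequences there were 69.5 raw reads at NT, 137.5 at MET and 89 at AET, or 92.4, 115 and 79.9 normalized reads. The summed log2 ratios against NT were 0.31 (-0.12 to 0.74) at MET and -0.21 (-0.69 to 0.25) at AET, and both intervals included no change. Between AET and MET it was -0.52 (-0.93 to -0.13). These sums and intervals count sequences with equal reads separately. With equal reads summed once, the log2 ratios were 0.38 at MET against NT, -0.09 at AET against NT and -0.47 at AET against MET. For the 7 miR6300 sequences that begin at the first place, with 51.5, 111 and 76 raw reads at NT, MET and AET, the log2 ratios were 0.43 (-0.07 to 0.92) at MET against NT and -0.0047 (-0.55 to 0.52) at AET against NT. The miR6300 and miR8175 sets, which lie at opposite ends of the aspartate tRNA-like stretch, had different ratios at AET against NT, -0.21 (-0.69 to 0.25) for miR6300 and -1.76 (-2.01 to -1.51) for miR8175, with intervals that did not overlap. With 1 library per temperature, this difference cannot be told apart from a difference between libraries.

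The miR6478 set had 402 normalized reads at NT, 277 at MET and 365 at AET over 10 sequences. The summed log2 ratio was -0.54 (-0.77 to -0.31) at MET against NT, -0.14 (-0.36 to 0.08) at AET against NT and 0.40 (0.18 to 0.61) at AET against MET. Scaled by valid reads, it was -0.11 at MET against NT and 0.11 at AET against MET, so the lower level at MET depended on the scaling. Only miR6478-L19b among its 5 sequences with enough reads was past 2-fold, at 3 raw reads at MET and 4.5 at AET against 9.5 at NT. This was 1 of 5 in each comparison with NT, while 29.9% of all listed sequences were past 2-fold at MET against NT and 40.1% at AET against NT.

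**Figure D4:**
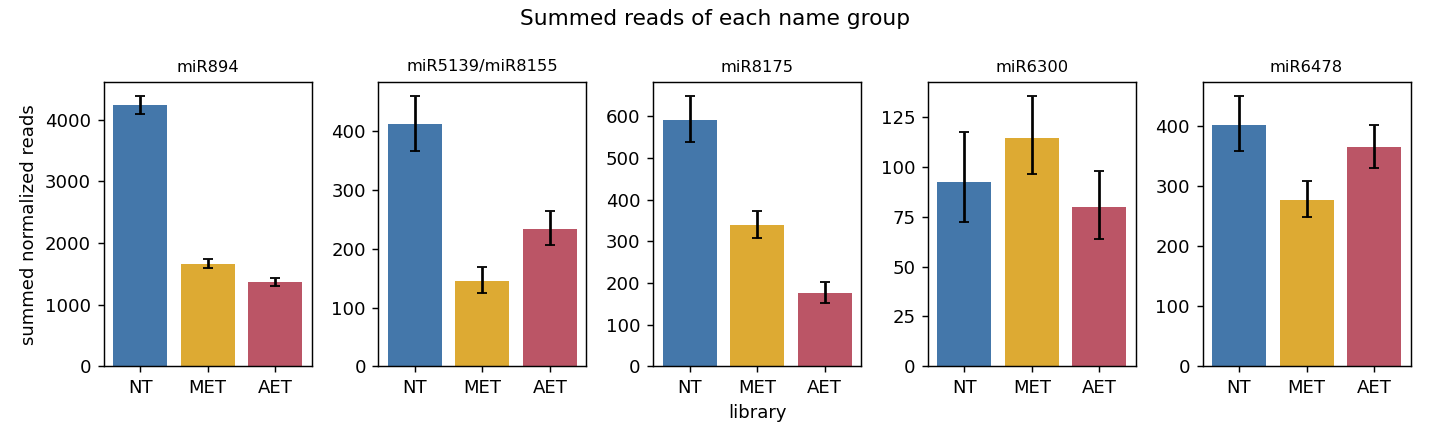
Summed normalized reads of each name group (bars start at 0; the vertical scale differs between panels) in the NT, MET and AET libraries, with 95% Poisson intervals for counting error. miR894 and miR8175 are highest at NT and lowest at AET, miR5139 with miR8155 is lowest at MET, and the miR6300 and miR6478 sums at AET and NT overlap.

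Several lengths were listed from the same first base in miR6478 and miR6300. In miR6478 the 4 lengths 19, 20, 23 and 24 nt had 113.5, 29, 72.5 and 61.5 raw reads at NT, 130, 35.5, 80.5 and 66 at MET, and 114.5, 35, 119.5 and 114.5 at AET. The sequences of 23 and 24 nt made up 48.5% (95% Clopper-Pearson interval 42.4 to 54.4) of the series at NT, 47.0% (41.5 to 52.8) at MET and 61.0% (55.9 to 65.8) at AET. The AET interval lay above both others. In miR6300 the 5 lengths from 19 to 23 nt had 8, 3, 4, 9.5 and 21 raw reads at NT, 13, 16.5, 5.5, 17 and 48 at MET, and 8, 1.5, 11.5, 8.5 and 33.5 at AET. The 23 nt sequence held 46.2% (30.9 to 61.0) at NT, 48.0% (37.9 to 58.2) at MET and 53.2% (40.9 to 66.6) at AET, which overlapped.

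**Figure D5:**
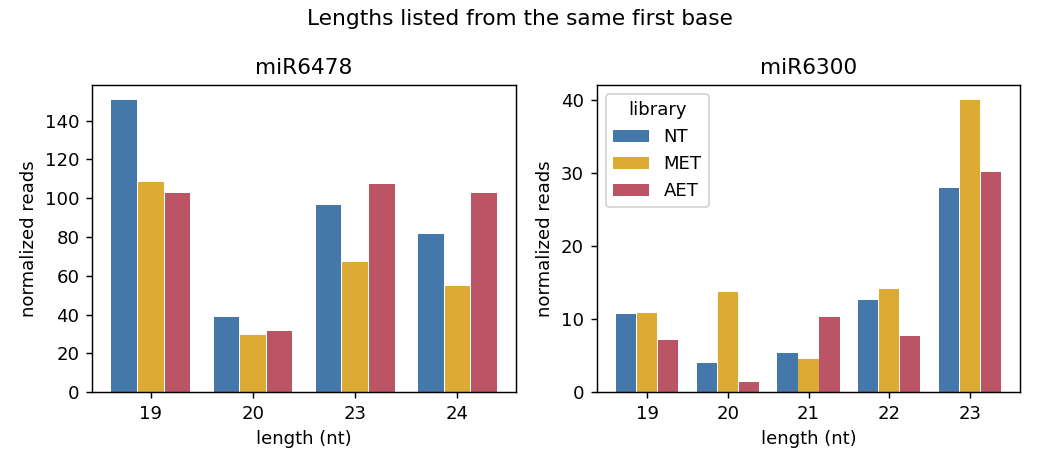
Normalized reads of the sequences that start at the same first base, by length in nt, for miR6478 (left) and miR6300 (right) in the NT, MET and AET libraries. In miR6478 the AET bar exceeds the NT bar at 23 and 24 nt and not at 19 and 20 nt.

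A sequence was counted as past 2-fold where it had at least 10 normalized reads in 1 of both libraries and its normalized reads differed by 2-fold or more. A sequence near this limit can enter through its higher library alone, which makes a count past 2-fold more likely. The same filter was used for all listed sequences. For MET against NT, 20 of the 42 had enough reads, of which 1 was past 2-fold higher and 7 past 2-fold lower. Scaled by valid reads there were 1 higher and 4 lower, and miR894-L21, miR8155-L20 and miR8175-L21a were no longer past 2-fold. No share over all listed sequences is given for that scaling. With the study's factor, 29.9% of all listed sequences were past 2-fold in this comparison, 15.1% higher and 14.8% lower. The median log2 ratio was -0.59 for these names and 0.0035 for all listed sequences. The 1 higher sequence was miR6300-L20a, with 16.5 raw reads at MET against 3 at NT, and it passed the filter through MET alone. Of the lower ones, miR8155-L20, miR8155-L19a and miR6478-L19b passed it through NT alone. Just inside the mark on the lower side was miR8175-L21a (-1.08) and just outside it miR8175-L21b (-0.85).

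For AET against NT, 0 of 20 were past 2-fold higher and 9 were past 2-fold lower. The shares over all listed sequences were 40.1% in either direction, 20.7% higher and 19.4% lower. The median log2 ratio was -0.91 for these names and 0.15 for all. The 9 were miR894-L21, the 6 miR8175 sequences, miR8155-L19a and miR6478-L19b. Among them miR8175-L20a, miR8155-L19a and miR6478-L19b passed the filter through NT alone. Closest to the mark were miR8175-L21c (-1.17) inside and miR8155-L20 (-0.999) outside. Scaled by valid reads there were 1 higher, miR6300-L21, and 9 lower, with no share over all listed sequences given for that scaling.

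For AET against MET, 1 of 18 was past 2-fold higher and 4 were past 2-fold lower, with 39.9% past 2-fold over all listed sequences, 19.5% higher and 20.5% lower. The numbers were 3 higher and 4 lower under median-ratio scaling, and 0 higher and 5 lower when scaled by valid reads. Shares over all listed sequences are given for the study's factor only, so numbers under other scalings have no share beside them. The higher sequence was miR6300-L21 with 11.5 raw reads at AET against 5.5 at MET. The lower ones were miR6300-L20a, miR8175-L23a, miR8175-L19a and miR8175-L20a. Here miR6300-L21 passed the filter through AET alone, and miR6300-L20a and miR8175-L20a through MET alone. The median log2 ratio was -0.47 for these names and 0.0084 for all listed sequences. The AET and MET comparisons with NT share the NT library and do not count as separate evidence. With the study's own rule, which adds a chi-square and a Fisher test of the reads to the 2-fold mark, 1 higher and 6 lower were left at MET against NT, where 22.1% of all listed sequences passed (12.2% higher and 9.96% lower). At AET against NT 7 lower were left, with 33.7% of all listed sequences (18.4% higher and 15.3% lower), and at AET against MET 4 lower, with 34.6% (17.8% higher and 16.8% lower). These tests compare the reads of single libraries and not the temperatures.

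Among 280 other listed sequences with reads in every library and at least 10 normalized reads in 1 of them, the pattern nearest to that of miR894-L21 over the 3 libraries was that of spi-miR9477-p3 (distance 0.229 on centred log2 values). PC-16-5p (0.233) and spi-miR169e-3p (0.254) followed. spi-miR169e-3p had 321.7 normalized reads at NT, 155 at MET and 101 at AET, while the other 2 had fewer than 10 raw reads in each library. With 3 libraries, many sequences can lie this close.

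Degradome libraries hold the 5′ ends of cut mRNAs, so that a true miRNA target shows a peak of ends at 1 site. The table of cleavage sites held 13 rows for 11 of these sequences, at 12 sites. Values are tags scaled to a common library total (TPB), and the value of a single read could be read from the table (84.9 TPB at NT, 87.2 at MET and 92.1 at AET). In 10 of the 13 rows no library had more than 1 read, against 186 of 332 (56.0%) other rows used. None of the 13 rows was in category 0 or 1, which mark a site as the maximum of its transcript, against 48 of 332 (14.5%) other rows. The target caller's own p was at or under 0.05 in 0 of the 13 rows and in 55 of 332 (16.6%) other rows. No site was seen in all 3 libraries.

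The deepest of these sites was in emb1075 (Solyc04g071140.2.1, a pyridoxal phosphate-dependent transferase), at position 144 of the transcript. It had 5 reads at MET (436 TPB), 3 at AET (276) and 0 at NT, and was listed for both miR6478-L19b and miR6478-L19d. Its alignment penalty was 4, the highest value that occurred in the 13 rows, and its category was 2, below the maximum of the transcript. The miR894-L21 site lay at position 482 of a copper amine oxidase transcript (CAO, Solyc08g079430.2.1), from a family of enzymes that oxidize polyamines. It had 2 reads at AET and 0 at NT and MET, category 2 and the lowest penalty of the 13 rows, 2.5.

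The remaining sites had at most 1 read per library and category 4. For miR6300 they were in HSP70 (Solyc07g043560.2.1, a heat shock chaperone; 1 read at MET) for miR6300-L19a, a LEA hydroxyproline-rich glycoprotein (Solyc06g074050.1.1; 1 read at NT and 1 at MET) for miR6300-L22b, and a sulfite exporter family protein (Solyc02g079980.2.1; 1 read at AET) and Solyc05g013870.2.1 (1 read at NT and 1 at MET) for miR6300-L20b. For the 3′ sets they were in DUF584 (Solyc06g075170.1.1; 0.5 reads at NT and 0.5 at MET), a U-box protein (Solyc06g071270.2.1; 1 read at MET), TRFL2 (Solyc05g054410.2.1; 1 read at AET), a leucine-rich repeat kinase (Solyc07g006110.2.1; 1 read at NT) and an acyltransferase (HAT, Solyc11g008630.1.1; 1 read at MET). miR6478-L19a had 1 read at NT in a thaumatin-like pathogenesis-related protein (PRT, Solyc02g083760.2.1). At this depth no difference between temperatures could be read from any of these sites.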

How the data were processed

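Small RNA and degradome libraries of LA2093 leaves at NT, MET and AET (1 each) were used. The authors removed sequences outside 19 to 24 nt and those matching Rfam, mRNA, rRNA, tRNA or repeats with ACGT101-miR, allowed at most 1 mismatch to plant miRBase entries, and deposited raw reads (estimated counts, since they can be fractional) and normalized reads per listed sequence. The deposited cleavage sites came from CleaveLand, with an alignment penalty score per site and tags scaled to a common total (TPB). The authors' own comparisons between libraries (fold changes and p-values) were not used. Some rows of the cleavage-site table are not reported here.

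Members and lists were chosen with earlier results of these data known. Entries were reduced to distinct sequences (Python 3.11.15, pandas 2.3.3, numpy 2.4.6). All members were accounted for: those with at least 10 normalized reads were given by library and the others by range. A library at 0 was set to 3 raw reads for a ratio. Intervals of 95% came from scipy 1.17.1 (Clopper-Pearson; exact conditional binomial for ratios; Poisson for sums) on reads rounded to whole numbers. Counting and calling were tested on simulated data. No genome or tRNA annotation of the build was at hand, so sequences were matched to the study's listed hairpins only. Alternatives were other scalings, filters and ways of counting entries.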

Additional observations from a re-analysis of the deposited data

How the results depend on the processing

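The comparison with NT rested on the scaling at MET: valid reads in place of the study's factor moved every log2 ratio by 0.42 at MET against NT, 0.14 at AET against NT and -0.29 at AET against MET, and median-ratio scaling by -0.10, 0.012 and 0.11. By valid reads, 5 sequences were past 2-fold at MET against NT, in place of 8, and 10 at AET against NT, in place of 9. For valid reads no share over all listed sequences is given, and the shares under the study's factor do not apply. Without a filter on low reads 15 of 42 sequences were past 2-fold at MET against NT (27.3% of all listed), 23 of 42 at AET against NT (36.1%) and 11 of 41 at AET against MET (37.6%). With at least 30 normalized reads there were 4 of 13 at MET against NT (22.6% of all listed), 6 of 13 at AET against NT (31.2%) and 1 of 11 at AET against MET (26.8%). The rule of the study left 7, 7 and 4, and requiring an interval without 1 left 8, 7 and 4. For the interval no share over all listed sequences is given. The share of listed reads was 1.56%, 0.781% and 0.735% at NT, MET and AET over list entries, 0.129%, 0.0768% and 0.0550% of valid reads, and 0.373%, 0.247% and 0.240% without miR894-L21. With at most 1 mismatch, 95.1% of members were found in a hairpin of their name; with or without the final CCA, an alternative chosen after seeing the data like the sum of miR6300 sequences from the first place, 68.3% were found exactly. No summed or single ratio past 2-fold changed sign under another scaling. Some smaller ratios did, such as that of miR6478-L20a at MET against NT, from -0.38 to 0.042 by valid reads. No paired analysis was possible because each temperature had 1 library. Depth limited the 21 sequences with few reads, whose ratios were not read, and every degradome site.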

Other observations

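Outside these names, 14 listed sequences ended in CCA. Of these, 6 stood under miR5054, miR5072 and miR5077, names picked after their sequences were seen, and had 67, 79 and 29 raw reads in sum at NT, MET and AET. The base at the 19th place from the 3′ end was A in 1 of the 6 and another base in 5. The A form, spi-miR5072_osa of 19 nt, had 65.1 normalized reads at NT, 48.3 at MET and 18.0 at AET. The single spi-miR5077_osa sequence had 6 raw reads at NT, 4.5 at MET and 0.5 at AET. The other 8, among them spi-miR160a with 109, 158 and 144 normalized reads at NT, MET and AET, had no A at this place.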
